A study of Homo sapiens with 14 samples.

Results

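The Argonaute genes AGO1 to AGO4, the TNRC6 genes TNRC6A, TNRC6B and TNRC6C, and the microRNA processing genes DICER1, DROSHA and XPO5 were followed in HEK293T cells that received miR-34a. The 10 genes were chosen by symbol from a count table of 63140 genes, and all 10 were among the 18321 genes with enough reads to be tested. HEK293T is a line of human embryonic kidney cells with the large T antigen of SV40, and RNA was collected 24 h after transfection with an RNA duplex. The miR-34a-RS group (n = 4, replicates 1, 2, 3 and 5) received a miR-34a duplex in which guide residues 13 and 14 were rSpacer, an abasic residue with a backbone and no base. The miR-34a-WT group (n = 5) received the duplex without abasic residues, and the control group (n = 5) received AllStars, a commercial negative control siRNA. All groups thus carried a transfected duplex, and no group of untransfected cells was analysed here. Whether the replicates came from separate cultures is not given in the labels, so each p-value rests on a spread between libraries that may be technical.

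In animal cells DROSHA, with its partner DGCR8, cuts the hairpin of a microRNA out of its primary transcript in the nucleus. XPO5 carries the hairpin to the cytoplasm, and DICER1 cuts it to a duplex, of which an Argonaute protein keeps the guide strand. The loaded Argonaute pairs with messenger RNAs, mostly through the guide seed, and binds a TNRC6 scaffold protein, which recruits the deadenylases that shorten the poly(A) tail. A transfected duplex enters this route at Argonaute loading, after the cutting and export steps. AGO2 is the Argonaute best known for cutting a fully paired target.

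The guide of miR-34a is shown because both the seed and the abasic residues are defined on it. The mature sequence is that of RefSeq for GRCh38.p14, at chr1:9151735-9151756 on the minus strand. The first line has the seed, positions 2 to 8 from the 5′ end, in capitals, and the second has positions 13 and 14 in capitals, the residues that were abasic in miR-34a-RS.
miR-34a seed: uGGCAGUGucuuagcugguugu
miR-34a abasic residues: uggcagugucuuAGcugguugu

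Seed matches were searched on the sense strand of the longest annotated 3′ UTR of each gene, in GENCODE 29 on GRCh38. An 8mer match is CACTGCCA, a 7mer-m8 match is CACTGCC without the last A, a 7mer-A1 match is ACTGCCA without the first C, and a 6mer match is ACTGCC alone. The 10 genes held 17 matches in all. An 8mer was present in 3 of the 10 (AGO4, TNRC6B and XPO5), a 7mer-m8 was the best match of 2 (AGO2 and AGO3), 6mers were the only matches of 2 (AGO1 and DICER1), and 3 had no match (TNRC6A, TNRC6C and DROSHA). A match describes these letters in this window and does not show that the site is bound.

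The 5 windows below are the 8mers and the matches that also held AGCT, the complement of guide positions 13 to 16, with 1 to 15 bases between it and the seed match. Each is 30 bases of the annotated transcript, 5′ to 3′, with the seed match and, where present, AGCT in capitals. The lines give XPO5 at chr6:43523780-43523809 on the minus strand, AGO4 at chr1:35854312-35854341, TNRC6B at chr22:40324205-40324234 and at chr22:40329658-40329687, and AGO3 at chr1:36060198-36060227, all but XPO5 on the plus strand.
XPO5 8mer: gccgatctctaggcccttcttgCACTGCCA
AGO4 8mer: catgtcacagtgacggagataaCACTGCCA
TNRC6B 8mer: ttgacctagcagtagagtggagCACTGCCA
TNRC6B 7mer-m8 with AGCT: tcctccagcAGCTcagcacccaCACTGCCc
AGO3 7mer-m8 with AGCT: agctAGCTtctccacagcccacCACTGCCt

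The matches lay at different distances in UTRs of very different length. The XPO5 8mer began its 6mer core 82 bases after the stop codon in a UTR of 1538 bases, and the AGO4 8mer 730 bases after it in one of 4285 bases. The TNRC6B UTR of 12567 bases held 5 matches, its 8mer at 987 bases, 7mer-m8 matches at 2550 and 6440 bases, a 6mer at 615 bases and a 7mer-A1 at 6579 bases. In TNRC6B 9 bases separated AGCT from the seed match, and in AGO3 14 bases did. Long UTRs hold such letters often, so each was set against tested genes with a UTR of similar length, from 0.8 times as long to as much longer. An 8mer was present in 6.26% of 2365 genes with UTRs as long as that of XPO5, in 11.6% of 1668 as long as that of AGO4 and in 21.1% of 114 as long as that of TNRC6B. A 7mer-m8 or 8mer with AGCT was present in 10.5% of the 114 genes and in 11.6% of 43 genes with UTRs as long as that of AGO3, against 1.89% of all 13621 tested genes with a UTR.

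**Figure D1:**
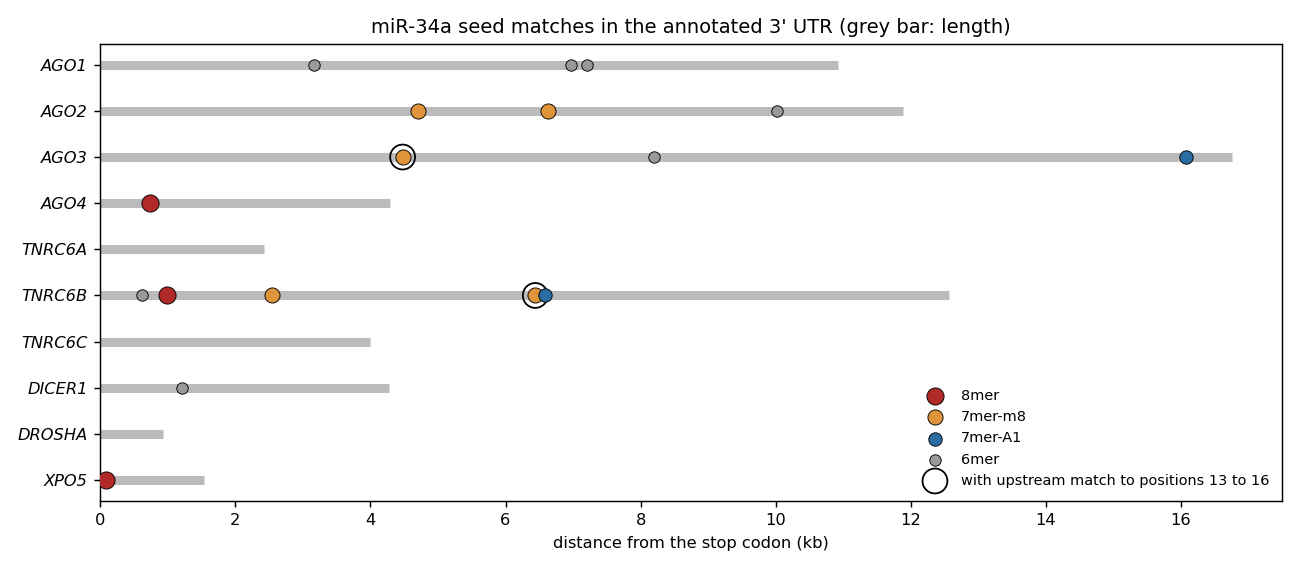
Positions of miR-34a seed matches along the annotated 3′ UTR of each gene, in kb from the stop codon, with grey bars for the length of the UTR, filled points for the 4 kinds of match and rings for matches with AGCT upstream. The 8mers of XPO5, AGO4 and TNRC6B all lay within 1 kb of the stop codon, and TNRC6A, TNRC6C and DROSHA have bare bars.

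Total counts ranged from 22.24 to 36.26 M per library, and the 10 genes had 766 to 9586 reads each per library. Mitochondrial transcripts took 2.19% to 3.30% of counts, and the lowest share was in miR-34a-RS replicate 2. Of 8 markers listed for HEK293T, which include neurofilament genes, all 8 averaged over 1 CPM (counts scaled to a common library size with TMM factors) in each group, and their sum was 404 to 434 CPM with miR-34a-RS, 392 to 448 CPM with miR-34a-WT and 467 to 496 CPM in control. Of 6 fibroblast markers 2 averaged over 1 CPM, with COL1A1 at 21.8 to 31.8 CPM and COL1A2 at 0 reads in every library, and the sum of the list was 28.1 to 34.2 CPM with miR-34a-RS, 27.5 to 32.1 CPM with miR-34a-WT and 25.2 to 34.3 CPM in control. The blood cell markers PTPRC and CD3E were at or near 0. The HEK293T sum was lower in both miR-34a groups than in control. On average the neurofilament genes of the list were lower there and its keratin genes were not. Whether that bears on the genes below was not tested. In bulk RNA a lower level of a transcript in each cell and fewer cells that hold it cannot be told apart.

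Per kilobase of annotated exon, the order of the 10 genes was led by XPO5 in every group. In control XPO5 averaged 32.0 ± 0.955 CPM per kb (SD, n = 5), ahead of DROSHA at 21.3 ± 0.613 and DICER1 at 21.0 ± 0.836, whose ranges overlapped. AGO2 at 13.7 ± 0.807 and TNRC6A at 13.4 ± 0.780 CPM per kb overlapped as well, and AGO1 followed at 10.4 ± 0.344. AGO4 at 4.75 ± 0.215, TNRC6C at 4.10 ± 0.113, TNRC6B at 4.03 ± 0.277 and AGO3 at 2.36 ± 0.141 CPM per kb closed the order, with only TNRC6C and TNRC6B overlapping among these neighbours. With miR-34a-RS and with miR-34a-WT the order was the same except that TNRC6B stood ahead of AGO4 and TNRC6C. These genes sit well above the PIWI clade, the germline branch of the Argonaute family. PIWIL1, PIWIL2 and PIWIL3 had too few reads to be tested, with 1, 19 and 2 reads over the miR-34a-RS libraries, 0, 19 and 1 over the miR-34a-WT libraries and 0, 14 and 0 over the control libraries.

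**Figure D2:**
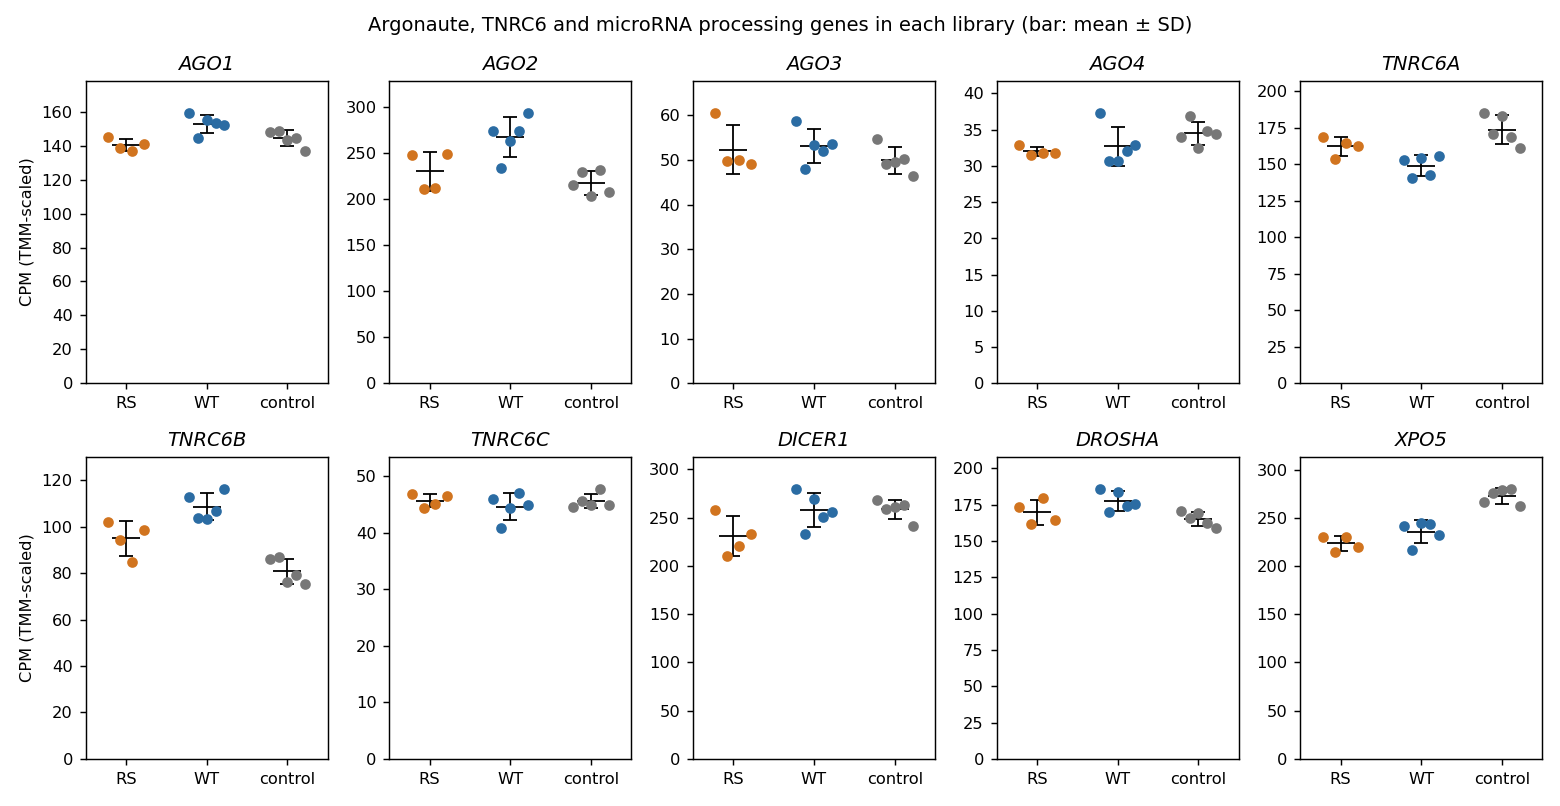
Expression of the 10 genes in each library (points, CPM scaled by TMM factors, axes from 0) with mean and SD per group, for miR-34a-RS (RS), miR-34a-WT (WT) and control. The points of TNRC6B and AGO2 with WT lie above all control points, those of TNRC6A with WT below them, and those of XPO5 below them with both RS and WT.

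The comparison of miR-34a-WT with control addresses the transcripts that differ with the unmodified microRNA. TNRC6B and AGO2 rose, TNRC6A and XPO5 fell, and the other 6 genes did not pass the test (edgeR quasi-likelihood test, adjusted p under 0.05 over all 18321 tested genes). The changes were small, from 0.858 to 1.34 times the control level. The count of 4 in 10 is close to the share over all tested genes, of which 40.2% passed in this comparison, 18.9% higher and 21.3% lower, so the count sets these genes apart in no way. The median log2 fold change of the 10 was 0.04, against -0.02 for all tested genes. All 4 that passed had groups that did not overlap, as did 28.9% of tested genes. In the comparison of miR-34a-RS with control, the same test called 1 of the 10 higher (TNRC6B) and 2 lower (XPO5 and DICER1), where 34.6% of tested genes passed, 16.2% higher and 18.4% lower. Its median was -0.02, against -0.01 for all tested genes. The 2 comparisons share the control libraries, so their values are given side by side and are not independent.

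AGO2 (ENSG00000123908, chr8:140520156-140635619, minus strand) had 248, 211, 212 and 249 CPM with miR-34a-RS, 274, 234, 263, 274 and 293 CPM with miR-34a-WT and 215, 229, 204, 232 and 207 CPM in control. Every miR-34a-WT library was above every control library, while the miR-34a-RS libraries fell into 2 near 211 CPM and 2 near 249 CPM and overlapped both other groups. AGO2 rose 1.23-fold with miR-34a-WT (log2 fold change 0.30, SE 0.06, 95% interval 0.18 to 0.42, adjusted p = 1.97e-04). With miR-34a-RS the log2 fold change was 0.08 (SE 0.06, interval -0.05 to 0.21, adjusted p = 0.338). That value became 0.14 (adjusted p = 0.0221) once the trend of fold change with 3′ UTR GC content and length over all genes was removed, a setting in which 51.9% of 13621 genes passed for miR-34a-RS and 56.6% for miR-34a-WT. Its UTR of 11888 bases held 7mer-m8 matches at 4709 and 6623 bases, and 56.0% of 141 genes with UTRs of like length held a 7mer-m8 or 8mer.

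The other 3 Argonaute genes are neighbours on chromosome 1, in the order AGO4 (ENSG00000134698, chr1:35808172-35857890), AGO1 (ENSG00000092847, chr1:35869808-35930528) and AGO3 (ENSG00000126070, chr1:35930718-36072500), all on the plus strand. Their proteins also load microRNA guides and bind TNRC6. AGO1 had 145, 139, 137 and 141 CPM with miR-34a-RS, 159, 145, 155, 153 and 152 CPM with miR-34a-WT and 148, 149, 143, 145 and 137 CPM in control. The miR-34a-RS values overlapped the control range, and the miR-34a-WT values overlapped it with 1 library, replicate 2. The log2 fold change of AGO1 was 0.08 (SE 0.04, adjusted p = 0.105) with miR-34a-WT and -0.04 (SE 0.04, adjusted p = 0.504) with miR-34a-RS. The miR-34a-WT value passed in 5 of 19 other settings, among them without miR-34a-WT replicate 2 (0.12, adjusted p = 0.0269), with DESeq2 (0.10, adjusted p = 0.0296) and with the GC and length trend removed (0.11, adjusted p = 4.48e-04). AGO3 ranged from 49.0 to 60.4 CPM with miR-34a-RS, 48.0 to 58.7 CPM with miR-34a-WT and 46.4 to 54.7 CPM in control, so its groups overlapped throughout. AGO4, like XPO5, holds an 8mer and no other match. AGO4 ranged from 31.5 to 32.9 CPM with miR-34a-RS, 30.7 to 37.2 CPM with miR-34a-WT and 32.5 to 36.8 CPM in control. Its log2 fold change was -0.08 (interval -0.19 to 0.03, adjusted p = 0.261) with miR-34a-WT and -0.11 (interval -0.22 to 0.01, adjusted p = 0.145) with miR-34a-RS. Without miR-34a-WT replicate 1 the miR-34a-WT value was -0.13 and passed (adjusted p = 0.0454). For comparison, tested genes with an 8mer had a median log2 fold change of -0.21 for miR-34a-WT and -0.18 for miR-34a-RS.

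TNRC6B (ENSG00000100354, chr22:40044817-40335808, plus strand) had 102, 94.1, 84.8 and 98.7 CPM with miR-34a-RS, 113, 104, 103, 107 and 116 CPM with miR-34a-WT and 86.0, 86.9, 76.0, 79.3 and 75.2 CPM in control. The miR-34a-WT libraries were above all others, and the miR-34a-RS libraries lay between them and the control libraries, with replicate 3 inside the control range. TNRC6B rose 1.34-fold with miR-34a-WT (log2 fold change 0.43, SE 0.05, 95% interval 0.31 to 0.54, adjusted p = 6.89e-07) and 1.18-fold with miR-34a-RS (0.23, SE 0.06, interval 0.11 to 0.35, adjusted p = 0.00263). This is the gene with the most seed matches of the 10, and its direction was opposite to the median of genes with an 8mer. Among the 31 tested genes with an 8mer and a UTR of at least 10 kb, 25.8% rose and 48.4% fell with miR-34a-WT, and 19.4% rose and 41.9% fell with miR-34a-RS.

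TNRC6A (ENSG00000090905, chr16:24610209-24827632, plus strand), a scaffold of the same family with no seed match in its UTR of 2420 bases, went the other way. It had 169, 153, 164 and 162 CPM with miR-34a-RS, 153, 141, 154, 142 and 155 CPM with miR-34a-WT and 185, 171, 183, 169 and 161 CPM in control. All miR-34a-WT libraries were below all control libraries, and the miR-34a-RS libraries overlapped both. TNRC6A fell by 0.22 on the log2 scale with miR-34a-WT (SE 0.05, interval -0.32 to -0.13, adjusted p = 3.92e-04), and with miR-34a-RS its log2 fold change was -0.10 (SE 0.05, interval -0.20 to 0.00, adjusted p = 0.124). The miR-34a-RS value passed with the GC and length trend removed (-0.09, adjusted p = 0.0378). TNRC6C (ENSG00000078687, chr17:77959240-78108835, plus strand), the third scaffold, ranged from 44.3 to 46.8 CPM with miR-34a-RS, 40.9 to 47.0 CPM with miR-34a-WT and 44.6 to 47.7 CPM in control. Its 95% intervals ran from -0.12 to 0.06 with miR-34a-WT and from -0.10 to 0.10 with miR-34a-RS on the log2 scale.

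The make-up of both families, as shares of CPM per kb of exon, followed these values. TNRC6B made up 22.2% ± 1.32 of the TNRC6 sum with miR-34a-RS (SD, n = 4), 25.9% ± 0.808 with miR-34a-WT and 18.7% ± 1.02 in control (n = 5 each). TNRC6A made up 58.6% ± 1.29 with miR-34a-RS, 54.995% ± 1.09 with miR-34a-WT and 62.3% ± 1.47 in control, and TNRC6C stayed between 19.0% and 19.2% on average. The summed level of the family was 21.4 ± 0.796 CPM per kb with miR-34a-RS, 21.0 ± 0.847 with miR-34a-WT and 21.6 ± 0.875 in control, which differed by less than the spread between libraries. AGO2 made up 46.0% ± 1.79 of the Argonaute sum with miR-34a-RS, 48.3% ± 1.60 with miR-34a-WT and 43.9% ± 1.05 in control. The Argonaute sum was 31.5 ± 1.82 CPM per kb with miR-34a-RS, 34.9 ± 2.02 with miR-34a-WT and 31.2 ± 1.253 in control. Shares depend on the length given to each gene. With the length of the transcript used for the UTR search TNRC6B made up 18.1% with miR-34a-RS, 21.4% with miR-34a-WT and 15.1% in control.

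**Figure D3:**
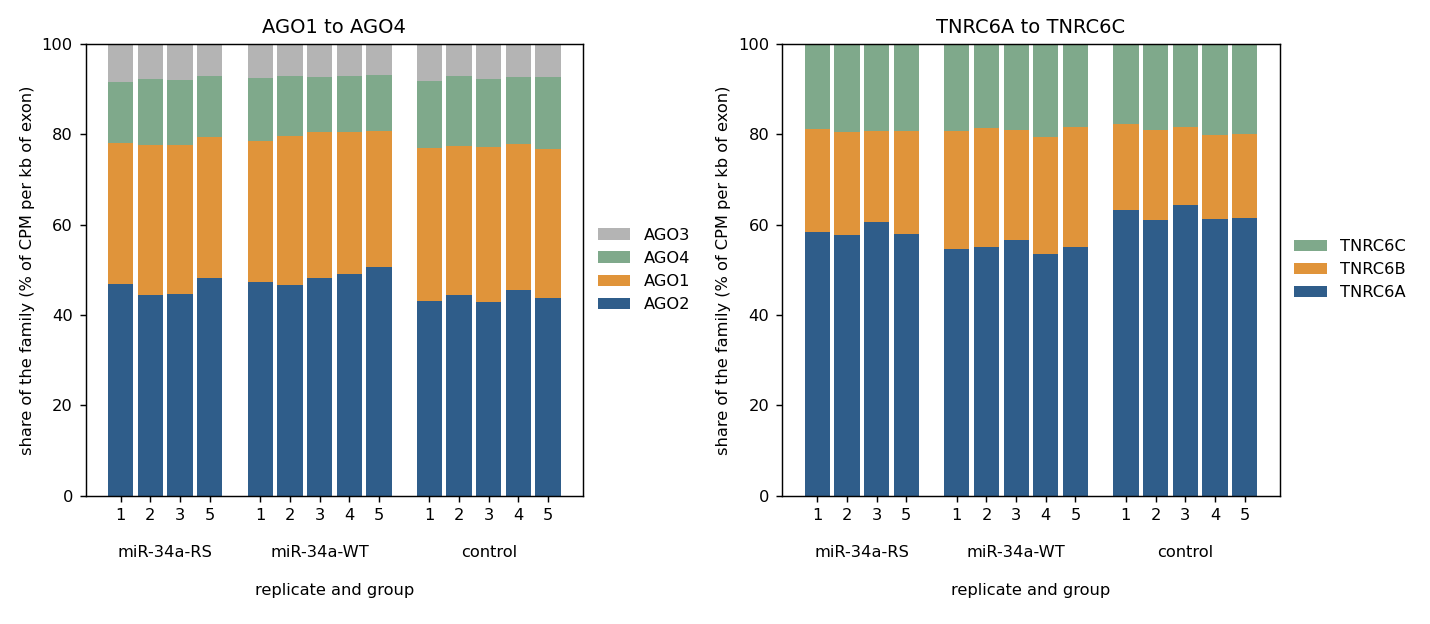
Share of each gene in the summed CPM per kb of exon of its family (stacked bars, %), 1 bar per library, for AGO1 to AGO4 on the left and TNRC6A to TNRC6C on the right. The TNRC6B band is widest in the miR-34a-WT bars, where it averaged 25.9%, against 18.7% in control, and the TNRC6A band is narrowest there.

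XPO5 (ENSG00000124571, chr6:43522330-43576075, minus strand), which exports microRNA hairpins from the nucleus, was the one gene of the 10 that passed the test as lower in both comparisons with control. It had 230.2, 214, 230.2 and 219.8 CPM with miR-34a-RS, 242, 217, 245, 243 and 232 CPM with miR-34a-WT and 266, 276, 279, 279.7 and 262 CPM in control. No library of either miR-34a group reached the lowest control library, and the 2 miR-34a groups overlapped each other. Non-overlap of this kind was seen for 27% of tested genes with miR-34a-RS. XPO5 fell to 0.820 times the control level with miR-34a-RS (log2 fold change -0.29, SE 0.04, 95% interval -0.38 to -0.19, adjusted p = 1.38e-05) and to 0.864 times with miR-34a-WT (-0.21, SE 0.04, interval -0.30 to -0.12, adjusted p = 2.21e-04). With the GC and length trend removed the miR-34a-WT value was -0.12 (adjusted p = 0.00900), which still passed, and the miR-34a-RS value was -0.22. The median of tested genes with an 8mer was -0.18 for miR-34a-RS, above the interval of XPO5, and -0.21 for miR-34a-WT, the same as the value of XPO5. The library kit does not mark strand, and XPO5 shares 348 exon bases, 4.08% of its exon length, with POLR1C on the opposite strand. POLR1C rose by 0.34 (SE 0.05) with miR-34a-WT and 0.28 (SE 0.05) with miR-34a-RS on the log2 scale. Whether reads in the shared bases bear on the values of XPO5 was not tested.

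DICER1 (ENSG00000100697, chr14:95086228-95158010, minus strand), the cytoplasmic enzyme that cuts hairpins, had 258, 210.5, 221 and 233 CPM with miR-34a-RS, 279.6, 233, 269, 251 and 255 CPM with miR-34a-WT and 268, 259, 261, 263 and 241 CPM in control. The miR-34a-RS values lay below the control range in replicates 2, 3 and 5 and within it in replicate 1. DICER1 fell by 0.16 on the log2 scale with miR-34a-RS (SE 0.06, interval -0.28 to -0.05, adjusted p = 0.0256). With miR-34a-WT its log2 fold change was -0.01 (interval -0.12 to 0.10, adjusted p = 0.949). The miR-34a-WT value passed as lower in 1 of 19 other settings, with the GC and length trend removed and the replicate block (-0.07, adjusted p = 0.0310). In that setting 8326 of 13621 genes passed. DICER1 shares 80 exon bases with the antisense gene DICER1-AS1, which did not pass in either comparison. The fall with miR-34a-RS lay between -0.21 and -0.12 in all 18 other settings, and its adjusted p crossed the threshold in 7 of them. The value was -0.14 (adjusted p = 0.0577) with no filter on low counts, -0.12 (adjusted p = 0.124) without miR-34a-RS replicate 2, -0.14 (adjusted p = 0.0813) without miR-34a-RS replicate 3, and -0.15 (adjusted p from 0.0508 to 0.0735) without control replicate 1, 2, 3 or 4. The adjusted p was 7.77e-04 with the replicate number as a block, 3.19e-04 with the GC and length trend removed and 4.73e-05 with both.

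DROSHA (ENSG00000113360, chr5:31400497-31532196, minus strand), the nuclear enzyme, had 174, 162, 179.9 and 164 CPM with miR-34a-RS, 186, 170.0, 184, 174 and 175 CPM with miR-34a-WT and 171, 166, 169, 163 and 159 CPM in control. The miR-34a-WT values overlapped the control range with 1 library, and the miR-34a-RS values spread across both. The log2 fold change was 0.10 with miR-34a-WT (SE 0.04, interval 0.02 to 0.19, adjusted p = 0.0518) and 0.04 with miR-34a-RS (SE 0.04, interval -0.05 to 0.13, adjusted p = 0.550). The miR-34a-WT value stood at the threshold. It passed in 11 of 19 other settings, DESeq2 size factors and upper-quartile factors among them, and dropped to 0.03 (adjusted p = 0.464) with the GC and length trend removed.

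**Figure D4:**
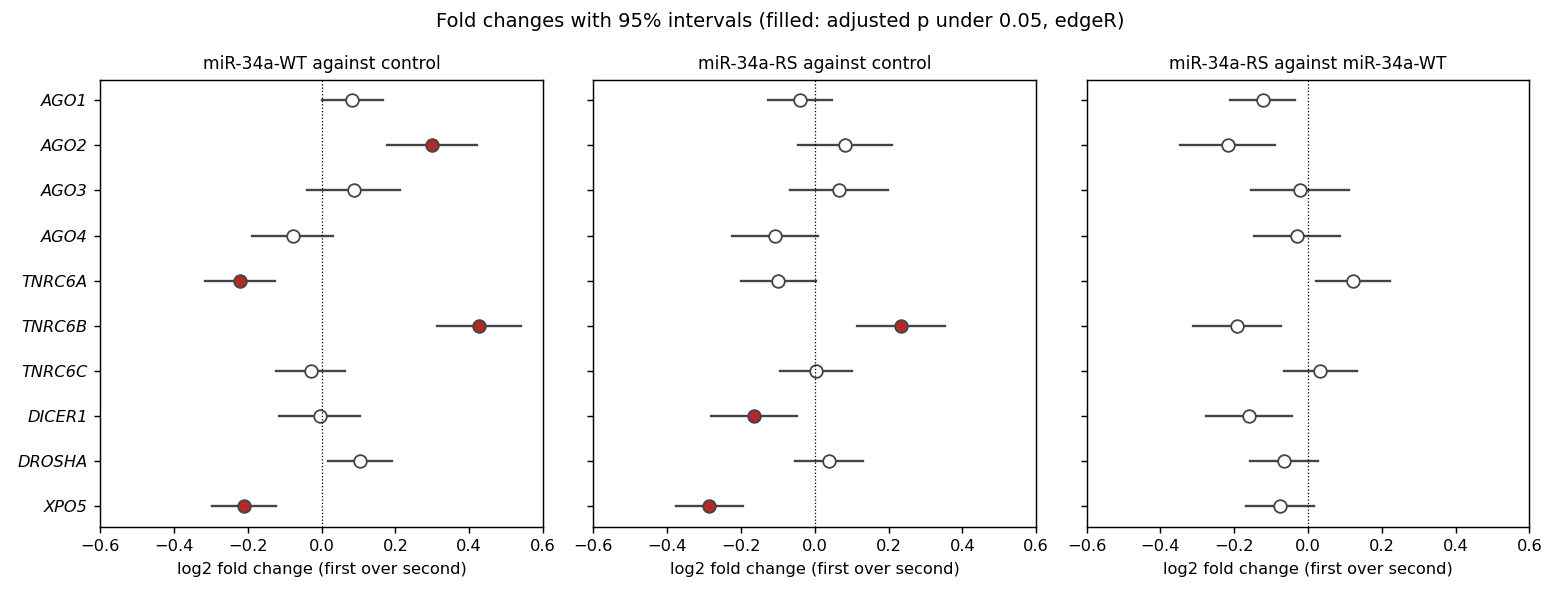
Log2 fold change of each of the 10 genes (points) with its 95% interval (lines) for miR-34a-WT against control, miR-34a-RS against control and miR-34a-RS against miR-34a-WT, with filled points where the adjusted p was under 0.05. TNRC6B lies right of 0 and XPO5 left of 0 in both comparisons with control, and no point is filled in the comparison of the miR-34a duplexes.

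The comparison of the 2 duplexes, miR-34a-RS against miR-34a-WT, bears on the abasic residues 13 and 14, the only difference that the labels name between them. Without regard to replicate number none of the 10 genes passed the edgeR test, and 1.56% of all tested genes did. An unadjusted p under 0.05 was found for 5 of the 10 and for 12.2% of tested genes. DESeq2 called 3 of the 10 and 2.78% of tested genes, and limma voom called 0 of the 10 and 1.5% of tested genes. Libraries with the same replicate number deviated together in these 2 groups, so a fit was also made that takes the replicate number as a block, in which 6.84% of tested genes passed, 3.41% higher and 3.43% lower. In it TNRC6B, DICER1 and AGO1 were lower in the miR-34a-RS libraries than in the miR-34a-WT libraries.

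TNRC6B was at 84.8 to 102 CPM with miR-34a-RS and 103 to 116 CPM with miR-34a-WT, with no overlap, as in 4.81% of tested genes. Its UTR holds a match to positions 13 to 16, and whether that match bears on the difference was not tested. The difference was -0.19 on the log2 scale (SE 0.06, interval -0.31 to -0.07, adjusted p = 0.104), and -0.20 with the block (SE 0.04, adjusted p = 0.00287). DICER1 differed by -0.16 (SE 0.06, interval -0.28 to -0.04, adjusted p = 0.197), and by the same -0.16 with the block (SE 0.04, adjusted p = 0.00976). AGO1 differed by -0.12 (SE 0.04, interval -0.21 to -0.04, adjusted p = 0.178), and by -0.12 with the block (SE 0.03, adjusted p = 0.0274). For AGO1 and TNRC6B the libraries with miR-34a-RS thus stood nearer to control than those with miR-34a-WT did, and for DICER1 they stood farther from it. AGO2 differed by -0.22 (SE 0.06, interval -0.35 to -0.09, adjusted p = 0.0815) and missed the threshold with the block as well (adjusted p = 0.0527). It passed without miR-34a-RS replicate 1 (-0.25, adjusted p = 0.0331) and without miR-34a-WT replicate 2 (-0.26, adjusted p = 0.0236). Leaving out miR-34a-RS replicate 1 also brought in TNRC6B (-0.22, adjusted p = 0.0317) and DICER1 (-0.21, adjusted p = 0.0242). With the GC and length trend removed and no block AGO1, AGO2, TNRC6A and TNRC6B passed, where 5.87% of 13621 genes did.

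For the other 6 genes the difference between the duplexes did not pass in either fit, and the intervals bound it. XPO5 differed by -0.08 (interval -0.17 to 0.02) and TNRC6A by 0.12 (interval 0.02 to 0.22, adjusted p = 0.277, and 0.0641 with the block). The intervals of DROSHA, from -0.16 to 0.03, of TNRC6C, from -0.07 to 0.13, of AGO4, from -0.15 to 0.09, and of AGO3, from -0.16 to 0.11, all held 0. AGO3 carries AGCT upstream of its 7mer-m8 match, as TNRC6B does, and its values with the 2 duplexes overlapped.

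Libraries of one number ran high or low in many of these genes at once. Replicate 2 was the lowest library of its group for 7 of the 10 genes with miR-34a-RS and for 8 with miR-34a-WT, and replicate 1 the highest for 8 with miR-34a-RS and for 5 with miR-34a-WT. In control replicate 5, the library with the fewest counts, was the lowest for 7 of the 10. Replicate 2 also had the lowest mitochondrial share in each of the 3 groups, and whether that bears on the differences above was not tested.

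The genes whose levels followed AGO2, TNRC6B and XPO5 most closely are given as a description. Pearson's r of log2 CPM over the 14 libraries was ranked over 11259 genes with at least 5 CPM on average, and the libraries share their group differences and depth. For AGO2 the highest r were those of ASH1L (0.963), GREB1L (0.960) and NBEA (0.945). For TNRC6B they were BRWD1 (0.978), REV3L (0.965) and CEP76 (0.959), and those reported for XPO5 are ANGEL1 (0.989) and FNDC3B (0.967).

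The other genes of the pathway were taken from 6 lists with 84 genes, of which 79 were tested. With miR-34a-WT 35 of the 79 were higher and 12 lower than control and 32 did not pass, with a median log2 fold change of 0.08. With miR-34a-RS 25 were higher, 13 lower and 41 did not pass, with a median of 0.06. Over all tested genes 40.2% passed for miR-34a-WT, 18.9% higher and 21.3% lower, and 34.6% for miR-34a-RS, 16.2% higher and 18.4% lower. The counts of each list below are to be read beside these shares, and no set test was made. Between the 2 duplexes 0 of the 79 passed by edgeR without the block and 0 by limma voom, DESeq2 called 3, 10 had an unadjusted p under 0.05, close to the 12.2% of all tested genes, and 7 passed with the block, where 6.84% of all tested genes did.

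Beside DROSHA, DICER1 and XPO5, the list of their partners and of export factors held 13 tested genes, 3 higher and 0 lower with miR-34a-WT and 1 higher and 0 lower with miR-34a-RS. KHSRP, an RNA-binding protein that promotes the processing of some microRNAs, rose by 0.30 (SE 0.04) with miR-34a-WT and 0.31 (SE 0.05) with miR-34a-RS on the log2 scale. RAN, the GTPase that XPO5 needs for export, rose by 0.18 (SE 0.04) with miR-34a-WT, and its value with miR-34a-RS was 0.08 (SE 0.04, adjusted p = 0.100). LIN28B, which blocks the processing of let-7, rose by 0.15 (SE 0.05) with miR-34a-WT, with 0.07 (SE 0.05, adjusted p = 0.335) with miR-34a-RS. DGCR8, TARBP2 and PRKRA, the direct partners of DROSHA and DICER1, were looked up outside the naming rule and did not pass in either comparison without the block. With the replicate block TARBP2 passed as lower with miR-34a-WT (-0.12, adjusted p = 0.00889). In that fit the list had 5 higher and 1 lower with miR-34a-WT, where 48.1% of tested genes passed. With miR-34a-RS it had 2 higher and 2 lower, where 42.1% passed. DGCR8 had log2 fold changes of 0.06 (SE 0.05) with miR-34a-WT and -0.01 (SE 0.05) with miR-34a-RS, and TARBP2 of -0.12 (SE 0.06) with miR-34a-WT and -0.14 (SE 0.06) with miR-34a-RS.

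The list on Argonaute loading and turnover, mostly chaperones, had 12 of 19 genes higher and 3 lower with miR-34a-WT, and 7 higher and 3 lower with miR-34a-RS. The co-chaperone DNAJB1 was at 163 ± 10.05 CPM with miR-34a-RS, 163 ± 8.35 CPM with miR-34a-WT and 119 ± 5.37 CPM in control. It rose by 0.45 (SE 0.05) in both comparisons although its UTR holds an 8mer, and it shares exon bases with TECR on the opposite strand. The co-chaperone DNAJA1 rose by 0.34 (SE 0.05) with miR-34a-WT and 0.37 (SE 0.05) with miR-34a-RS. TRIM71, a ubiquitin ligase that represses messenger RNAs, was at 27.7 ± 2.81 CPM with miR-34a-RS, 30.3 ± 3.81 CPM with miR-34a-WT and 44.4 ± 1.82 CPM in control. It fell by 0.68 (SE 0.07) with miR-34a-RS and by 0.55 (SE 0.07) with miR-34a-WT, and its UTR holds 2 7mer-m8 matches.

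Downstream of TNRC6, the deadenylation list had 6 of 17 genes higher and 2 lower with miR-34a-WT, and 5 higher and 4 lower with miR-34a-RS. CNOT6, a catalytic subunit of the CCR4-NOT deadenylase, was at 116 ± 6.31 CPM with miR-34a-RS, 124 ± 5.75 CPM with miR-34a-WT and 192 ± 7.73 CPM in control. It fell by 0.72 (SE 0.05, adjusted p = 9.63e-12) with miR-34a-RS and by 0.63 (SE 0.04, adjusted p = 2.16e-11) with miR-34a-WT, the largest falls among the named pathway genes, and its UTR holds a 7mer-m8 match. BTG1, which binds the deadenylases, rose by 0.38 (SE 0.05) with miR-34a-WT and 0.30 (SE 0.05) with miR-34a-RS, and CNOT10, another CCR4-NOT subunit, by 0.23 (SE 0.04) with miR-34a-WT and 0.16 (SE 0.04) with miR-34a-RS. The decapping and decay list had 5 of 15 genes higher and 4 lower with miR-34a-WT, and 6 higher and 2 lower with miR-34a-RS. The decapping cofactor DCP1A fell by 0.54 (SE 0.04) with miR-34a-WT and by 0.56 (SE 0.05) with miR-34a-RS. Its UTR holds a 7mer-m8 match with AGCT and a 7mer-A1 match. XRN1, the 5′ to 3′ exonuclease that degrades decapped RNA, rose by 0.66 (SE 0.06) with miR-34a-WT and 0.51 (SE 0.06) with miR-34a-RS. Beside DNAJB1, matches were also present in named genes that rose, a 6mer in XRN1 and a 7mer-A1 in BTG1 and in LIN28B. GIGYF2, which represses translation with the cap-binding protein EIF4E2, rose by 0.38 (SE 0.04) with miR-34a-WT and 0.36 (SE 0.04) with miR-34a-RS.

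Among the RISC-associated genes 9 of 14 were higher and 3 lower with miR-34a-WT, and 6 higher and 4 lower with miR-34a-RS. FMR1, an RNA-binding translation regulator, was at 229 ± 14.99 CPM with miR-34a-RS, 243 ± 16.5 CPM with miR-34a-WT and 155 ± 5.47 CPM in control, and rose by 0.65 (SE 0.05) with miR-34a-WT and 0.56 (SE 0.05) with miR-34a-RS. TSN, a subunit of the nuclease C3PO with 2 8mers in its UTR, fell by 0.45 (SE 0.05) with miR-34a-WT and by 0.49 (SE 0.05) with miR-34a-RS. TSN, DCP1A and TRIM71 each hold a match with AGCT. Their differences between the duplexes passed neither in the main fit nor in any of the 18 other settings. The helicase MOV10, which binds Argonaute, was at 65.7 ± 2.90 CPM with miR-34a-RS, 58.7 ± 1.80 CPM with miR-34a-WT and 87.2 ± 5.13 CPM in control. It fell by 0.57 (SE 0.05) with miR-34a-WT and by 0.41 (SE 0.05) with miR-34a-RS, and its UTR holds 2 6mers. The duplexes did not overlap for MOV10, with a difference of 0.16 (SE 0.05, adjusted p = 0.105, and 0.0165 with the block). In the block fit XRN1 (-0.15, adjusted p = 0.303 without and 0.0311 with the block), RAN (-0.10, 0.233 without and 0.0391 with it) and FMR1 (-0.09, 0.525 without and 0.0303 with it) were lower in the miR-34a-RS libraries than in the miR-34a-WT libraries.

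Sorted by their best seed match, the 79 pathway genes divided as follows. With miR-34a-WT, 25 of 49 genes without a match were higher and 4 lower, and 1 of 5 genes with an 8mer was higher and 1 lower. Of 10 genes with a 7mer-m8 as their best match 3 were higher and 3 lower with miR-34a-WT, and of 15 with weaker matches 6 were higher and 4 lower. With miR-34a-RS, 19 of the 49 without a match were higher and 3 lower, and 1 of the 5 with an 8mer was higher and 2 lower. In the same comparison 2 of the 10 with a 7mer-m8 were higher and 3 lower, and 3 of the 15 with weaker matches were higher and 5 lower. Over all tested genes without a match 27.6% were higher and 17.2% lower with miR-34a-WT, and 23.3% were higher and 14.03% lower with miR-34a-RS. Of tested genes with an 8mer 11.7% were higher and 51.3% lower with miR-34a-WT, and 10.06% were higher and 48.3% lower with miR-34a-RS. With a 7mer-m8 as the best match the shares were 13.9% higher and 40.7% lower with miR-34a-WT, and 12.9% higher and 35.5% lower with miR-34a-RS. Among genes with weaker matches miR-34a-WT had 21.2% higher and 29.9% lower, and miR-34a-RS 16.8% higher and 28.8% lower. RAN and DNAJA1 have processed pseudogenes, and the counting could split reads between them and their copies.

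**Figure D5:**
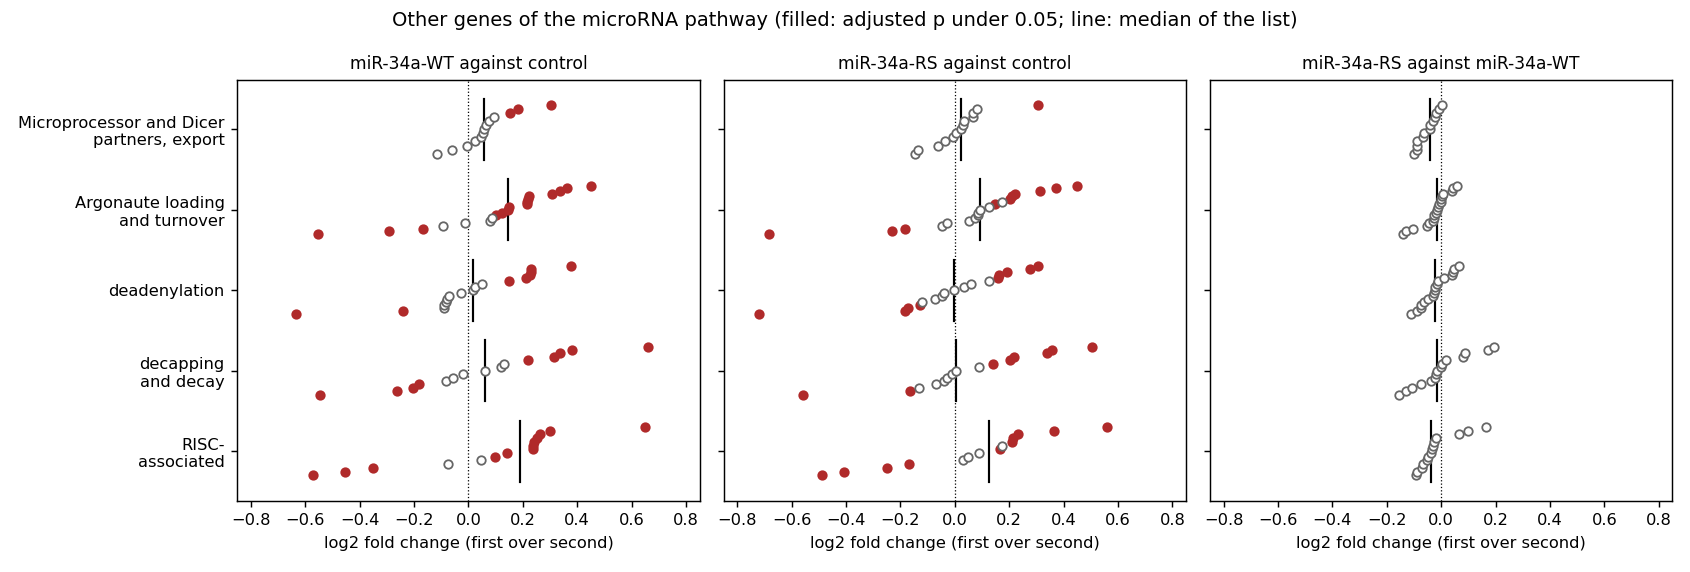
Log2 fold changes of the other tested genes of the pathway by list (points, filled where the adjusted p was under 0.05; vertical lines, medians), without the 1 tested PIWI gene, for the same 3 comparisons. In both comparisons with control each list but that of the partners and export factors has filled points on both sides of 0, and with miR-34a-RS against miR-34a-WT no point is filled.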

How the data were processed

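The authors deposited whole-number counts per gene in a single table, neither normalised nor pooled as far as the values show. STAR 2.7.11a, Subread 2.0.3 with featureCounts, edgeR 3.42.4 and the build GRCh38 are named in the submitters' processing notes. Which annotation release and strand setting the counting used is not given in the sources used here. Libraries were made with a TruSeq v2 kit, per the labels' protocols, which leaves the strand unmarked. Each of the 14 columns matched the labels of 1 library. GENCODE 29, used for positions, exon lengths, overlaps and 3′ UTRs, held 99.7% of the counts by gene identifier, and symbols matched 62541 of the 63140 genes.

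Genes with low counts were dropped by group with filterByExpr, and the rest were tested on TMM-scaled libraries by the robust quasi-likelihood test of edgeR 4.0.16 (R 4.3.3), in 1 fit of all 14 libraries with 3 group means. P-values were adjusted over the 18321 tested genes by the method of Benjamini and Hochberg, at a threshold of 0.05. SE is the log2 fold change divided by the square root of F, and intervals are at the 95% level. The common biological coefficient of variation was 0.0615. Over the 26 pairs of replicates chi-square per degree of freedom was 2.51 to 12.6, so each library counted as 1 replicate. On counts simulated with 200 changed genes the test recovered 50% to 60% of 1.25-fold changes over the 3 comparisons. It recovered 64% to 78% of 1.5-fold changes, and it called 2 to 8 unchanged genes per comparison.

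Alternatives were DESeq2 1.42.0, limma voom 3.58.1, DESeq2 size factors, upper-quartile factors, no filter on low counts, only the 2 groups compared, each library left out in turn, the replicate number as a block, and offsets that remove a spline of fold change on the GC share and length of the 3′ UTR. Same-numbered libraries of miR-34a-RS and miR-34a-WT correlated at 0.373 to 0.716 in their deviations from the group mean over 11259 genes (mean 0.555, against -0.134 for other pairs). The numbers were therefore taken as pairs there, a pairing that comes from the data, as no label explains the numbers. The block fit held all 14 libraries, so the control libraries were blocked by number in it too.

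The 3′ UTR was the longest of at least 20 bases among the complete transcripts of a gene. The named genes are the 10 members and, of each other list, up to 3 genes past the threshold with the smallest adjusted p in any comparison. The members and lists were chosen with earlier results of these data known, and their counts are descriptions. Some genes of the marker lists and of the correlation ranking are not reported here. Tables and plots used Python 3.11.15, pandas 2.3.3 and matplotlib 3.10.9.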

Additional observations from a re-analysis of the deposited data

Results flagged for a closer look

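In 1 of the 30 groups of libraries checked, 3 for each of the 10 genes, a library stood apart from the rest. AGO3 was at 60.4 CPM in miR-34a-RS replicate 1, against 49.0 to 49.9 CPM in the other miR-34a-RS libraries, a gap beyond Dixon's 95% critical value for 4 samples. Chance flags about 1 in 20 such groups. Without that library the log2 fold change of AGO3 with miR-34a-RS was 0.00 (adjusted p = 0.989), and with it 0.06 (adjusted p = 0.475).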

How the results depend on the processing

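TNRC6B, AGO2, TNRC6A and XPO5 kept their direction and passed the test in all 19 other settings of miR-34a-WT against control, with log2 fold changes of 0.40 to 0.47 for TNRC6B, 0.26 to 0.36 for AGO2, -0.25 to -0.18 for TNRC6A and -0.22 to -0.12 for XPO5. TNRC6B and XPO5 did so in all 18 of miR-34a-RS against control, at 0.21 to 0.28 and -0.30 to -0.22. No named gene that passed changed sign in any setting. Of the 10 genes, 4 passed for miR-34a-WT against control, and 4 to 6 with 1 library left out. For miR-34a-RS against control 3 passed, 2 to 3 with 1 library left out, 5 with the GC and length trend removed and 6 with the replicate block as well (55.9% of genes tested there). Of the 10 genes 0 passed between the 2 duplexes, 0 to 3 with 1 library left out (0.767% to 3.95% of genes tested), 4 with the trend removed, 5 with the trend removed and the replicate block (10.1%), 3 with DESeq2 (2.78%), 1 with no filter on low counts (0.83%) and 3 with the replicate block (6.84%). Of the 79 pathway genes 0 passed between them, 0 to 2 with 1 library left out and 3 with the trend removed (5.87% of genes tested there). With the trend removed and the replicate block 6 passed, with DESeq2 3, with the replicate block 7 and with upper-quartile factors 1 (1.69%). With no filter 84 pathway genes were tested and 1 passed. The cause of these differences was not tested.

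Against control the link between libraries of one number was uneven, with r from -0.156 to 0.557 for miR-34a-WT and from -0.0015 to 0.478 for miR-34a-RS. Its average was 0.291 for miR-34a-WT and 0.273 for miR-34a-RS. Libraries of different number averaged -0.0712 for miR-34a-WT and -0.0701 for miR-34a-RS. The numbers were not taken as pairs there, and whether control shares an effect of replicate number with the miR-34a groups was not tested. With the replicate block 6 of the 10 genes passed for miR-34a-WT, AGO1 and DROSHA being added, and 4 for miR-34a-RS, TNRC6A being added, and of the pathway genes 55 passed for miR-34a-WT and 47 for miR-34a-RS, where 48.1% of all tested genes passed for miR-34a-WT and 42.1% for miR-34a-RS.

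DESeq2 size factors moved the split over all genes to 3750 higher and 3685 lower for miR-34a-WT, against 3469 and 3904 with TMM. The SE of the log2 fold changes of the 10 genes was 0.04 to 0.06, and a difference of -0.22 (SE 0.06), that of AGO2 between the duplexes, did not pass, so differences of several SE can be missed with these libraries.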
